A study of Rattus norvegicus with 18 samples.

Results

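Red cell genes of heme synthesis, globin, the cell membrane and their control were followed in rat femora over 6 weeks of fracture healing. The 8 genes were a list of symbols, chosen with no threshold on their signals: Alas2, Urod and Fech of heme synthesis, the globin Hbb-b1, the membrane protein gene Slc4a1, the regulators Gata1 and Epor, and the iron uptake gene Tfrc. The array annotation held 7 of the 8, in 9 of the 8740 probe sets tested, and no probe set was annotated to Fech. The 12 probe sets that name a globin gene were examined as well. A probe set is a group of short probes that reads 1 or more transcripts, and its signal is a fluorescence value in arbitrary units.

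The data were 18 Affymetrix rat arrays, with 1 array for each of 3 ages and 6 times. Intact female Sprague-Dawley rats had surgery at 6 weeks of age (the young), at 26 weeks (the adult) or at 52 weeks (the older rats). In the fracture groups a steel rod was placed in the marrow cavity of the left femur and a closed fracture was made at midshaft, and the rats were taken at 5 later times, 0.4, 1 and 2 weeks and later 4 and 6 weeks. The sample labels give the 0.4 week time as 3 days. The 0 time controls of each age were sham rats without fracture, and the sources used here do not say whether these carried a rod. There was no unfractured group at later times, so time since surgery and growth of the rats cannot be told apart. RNA of 2 rats was pooled on each array, so a time point had 3 arrays, 1 from each age. The main fit of changes with time takes out the mean level of each age, and its p-values measure how far the ages differ in their courses. In the fit of young against adult and older rats they measure how far the courses of adult and older rats differ. None measures the spread between rats of an age. The middle of the femur was used, and callus, cortical bone and marrow were read together. In such tissue fewer red cell precursors and less RNA in each precursor cannot be told apart.

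The signal ratio between the 3' and 5' probe sets of Gapdh, a measure of RNA breakdown, was 1.15 to 1.83 on 16 arrays, 3.49 on the young 4-week array and 6.57 on the young 6-week array. Counts of the 7 genes at those times are therefore given with and without both arrays, while comparisons of young with other rats at 4 or 6 weeks rest on them. The same ratio for actin rose with the fall of the red cell genes in adult and older rats. In adult rats it was 1.198 at 0 time and 2.08, 2.12 and 1.61 at 0.4, 1 and 2 weeks. At 4 weeks it was 1.48 and at 6 weeks 1.72, again above its 2-week value. In older rats the values were 1.08, then 1.70, 1.71 and 1.71, then 1.41 and 1.31. In young rats the ratio was 1.82, then 1.88, 2.065 and 1.98, then 2.29 and 3.06. The share of probe sets below the floor of 20 was 10.5% and 12.4% in the adult and older controls. It was 16.4% to 17.3% at 0.4, 1 and 2 weeks, 12.4% and 13% at 4 weeks and 14.4% and 16.1% at 6 weeks. In young rats this share was 17.2% in the control, 14.1% to 17.9% at 0.4, 1 and 2 weeks, 17.4% at 4 weeks and 14.9% at 6 weeks. The part of RNA quality in the results was not tested. The median signal was 149.4 to 187.7 over the 18 arrays. The label of the young control names callus as its source although the rats had no fracture, and the array was used as a control as titled.

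Red cells are made in the marrow. Precursors respond to erythropoietin through its receptor, Epor, and the transcription factor Gata1 turns on the genes of heme synthesis, globin and the membrane. Iron enters the precursors through the transferrin receptor, Tfrc, and heme made from it is joined to alpha- and beta-globin chains as haemoglobin. Alas2 makes the first step of heme synthesis in red cell precursors, Urod a later step, and Slc4a1 encodes band 3, which exchanges anions across the red cell membrane.

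Promoter sequences of RefSeq were read to show the letters ahead of the genes that moved together. The table (build GRCr8) held 6 of the 7 measured genes and had no entry for Slc4a1. The 250 bases before each start were searched on both strands. The motif of Gata1 and its relatives was searched in 1 form only, AGATAA, which reads TTATCT on the opposite strand. Other forms of it, such as TGATAA, were not searched and stay in lower case. The box bound by Klf factors was searched as CCACCC, which reads GGGTGG on the opposite strand. The box of the basal promoter was searched as TATAAA, which reads TTTATA on the opposite strand. No match overlapped another in the windows shown. AGATAA was in 2 of the 6 windows, those of Alas2 and Epor, against 10.3% of all 33469 windows. CCACCC was in 3 of 6, those of Gata1, Hbb-b1 and Epor, against 26.1%. TATAAA was in 1 of 6, that of Hbb-b1, against 12.9%. The windows of Alas2 and Gata1 begin inside their annotated genes and are not printed. Printed here are the parts of the windows of Epor, a regulator, and Hbb-b1, a globin, that lie outside the annotated genes, and for comparison Hba-a1, an alpha-globin gene of the array. All 3 lie on the minus strand and are written 5' to 3' with motifs in capitals, Epor at chr8:28770372-28770572, Hbb-b1 at chr1:167643578-167643770 and Hba-a1 at chr10:15842581-15842830.
Epor: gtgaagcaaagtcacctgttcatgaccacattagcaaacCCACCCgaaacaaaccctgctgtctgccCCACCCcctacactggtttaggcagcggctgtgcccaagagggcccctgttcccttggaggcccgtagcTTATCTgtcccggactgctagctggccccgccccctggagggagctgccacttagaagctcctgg
Hbb-b1: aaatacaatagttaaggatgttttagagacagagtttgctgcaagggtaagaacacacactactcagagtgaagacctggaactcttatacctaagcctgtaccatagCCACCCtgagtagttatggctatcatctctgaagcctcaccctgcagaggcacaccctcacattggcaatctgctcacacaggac
Hba-a1: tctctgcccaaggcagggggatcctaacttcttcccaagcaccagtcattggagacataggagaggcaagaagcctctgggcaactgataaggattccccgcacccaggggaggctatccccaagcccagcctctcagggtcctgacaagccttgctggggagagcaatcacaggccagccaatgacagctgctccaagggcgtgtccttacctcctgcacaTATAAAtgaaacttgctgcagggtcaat
The capitals in Epor are CCACCC at 2 places and, nearer to the start, TTATCT. In Hbb-b1 they are CCACCC, and its TATAAA lies 25 to 30 bases before the start in the stretch left out. Of the letters searched, Hba-a1 has TATAAA alone, 23 to 28 bases before the start. A window without AGATAA can thus still hold another form of the Gata1 motif. A match of letters is a description and not evidence of binding.

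After fracture the red cell genes fell at all 3 ages and later rose, in older rats mostly to levels well under their controls. At 6 weeks the genes other than Tfrc had a median of 44.6% of their own control in older rats. This median was 79.1% in adult and 109% in young rats. Each percentage compares 1 array with 1 other, and the young 6-week array had the Gapdh ratio of 6.57. None of the 7 genes was called between young and the other rats at 6 weeks, so this order of the ages is a description. At 0.4 week all 7 measured genes were lower than the 0 time control (limma, adjusted p of 0.05 or less over all probe sets tested), where 17.1% of all probe sets were lower and 14.1% higher. At 1 week 6 of 7 were lower, where 20.4% of all were lower and 14.6% higher, and at 2 weeks 5 of 7, where 10.3% were lower and 9.49% higher. At 4 and 6 weeks none was called lower or higher by limma, where 1.77% and 0.32% of all probe sets were lower and 3.31% and 0.561% higher. At an unadjusted p of 0.05, 1 gene was lower and 1 higher at 4 weeks, where 12% of all probe sets were lower and 13.3% higher, and 1 was higher at 6 weeks, where 10.2% were. Without the young 4- and 6-week arrays 1 gene, Tfrc, was called higher at each of these times. Without all young arrays Alas2 was called lower at both times. The methods' t-test, at a p of 0.005 or after Benjamini-Hochberg adjustment, called none at either time. Taking the 5 later times in order, the median log2 change of the 7 genes was -3.23, -3.62, -1.97, -0.71 and -0.53. Over all probe sets it was -0.13, -0.13, -0.13, -0.04 and -0.06.

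The 3 arrays of a time were all below the 3 controls for 6 of 7 genes at 0.4 week and for 6 of 7 at 1 week, against 21.6% and 22.9% of all probe sets. They were all below for 2 of 7 at 2 weeks, against 15.4%. Each call of a fall rested on 3 arrays a time. Without the young arrays 7, 6 and 6 genes were called lower at 0.4, 1 and 2 weeks. Adjusted counts with an age left out are given without the share of all probe sets called. Without the adult or without the older arrays the counts were 0, 2 and 0 in both cases, and 6 genes were still lower at 0.4 and at 1 week at an unadjusted p of 0.05. Of all probe sets 14.1% and 17.8% were lower in that way without the adult arrays and 14.1% and 14.4% without the older arrays.

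**Figure D1:**
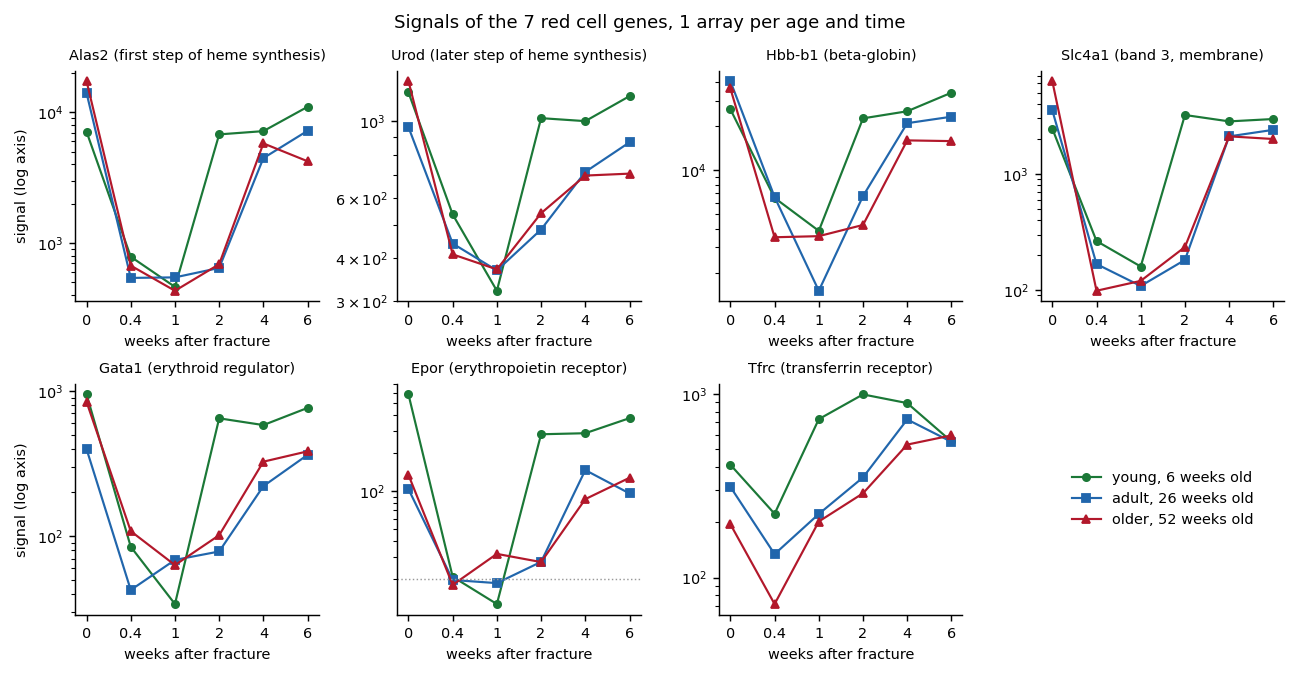
Signal (log axis, arbitrary units) against weeks after fracture (evenly spaced categories) for the 7 red cell genes, 1 panel each; every point is 1 array of young, adult or older rats, and the dotted line in the Epor panel is the floor of 20. In the panels of the genes other than Tfrc the young curve has risen again at 2 weeks, while the adult and older curves are still below their controls.

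Alas2, the enzyme of the first step of heme synthesis in red cell precursors, had control signals of 7118 (young), 14099 (adult) and 17357 (older rats). At 0.4 week these were 786, 541 and 672, and at 1 week 462, 546 and 432. The groups did not overlap at either time, and the lowest control was above every array at 0.4 and 1 week. At 2 weeks the signals were 6788 (young), 645 (adult) and 689 (older rats). Only the young array had left the low range by then. At 4 weeks they were 7190, 4470 and 5792, and at 6 weeks 11035, 7234 and 4228. The log2 change from the controls was -4.19 ± 0.69 (SE, n = 3 arrays a time, adjusted p = 0.0016, limma) at 0.4 week, an 18.3-fold lower level. It was -4.65 ± 0.69 (adjusted p = 0.0014) at 1 week and -3.06 ± 0.69 (adjusted p = 0.016) at 2 weeks. At 4 weeks the log2 change was -1.08 (95% interval -2.60 to 0.45) and at 6 weeks -0.79 (-2.32 to 0.74). Alas2 had reached 155% of its own control in young rats at 6 weeks, 51.3% in adult and 24.4% in older rats. Without the young arrays it was lower than the controls at 4 weeks (log2 change -1.62, adjusted p = 0.022) and at 6 weeks (-1.50, adjusted p = 0.027) by limma.

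Urod, a later enzyme of the heme pathway, made smaller steps in the same order. Its control signals were 1215 (young), 963 (adult) and 1310.2 (older rats). They were 322, 369 and 371 at 1 week, the lowest time at all 3 ages. At 2 weeks the signals were 1022, 485 and 541. Urod fell by 1.33 ± 0.21 on the log2 scale at 0.4 week and by 1.71 ± 0.21 at 1 week (SE, n = 3, adjusted p = 0.0014 and 0.00079, limma). At 2 weeks the log2 change was -0.84 ± 0.21 (adjusted p = 0.024).

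Of 14 heme synthesis genes listed, 7 were measured, and 5 were lower at 0.4 week, 5 at 1 week and 4 at 2 weeks. The genes that fell were Alas2, Urod, Alas1, Alad and Ppox. Alas1 is the form of the first enzyme found in most tissues, and its log2 changes over the first 3 times after fracture were -1.76, -1.46 and -0.61, the last not called. Alad, the second enzyme, changed by -1.50, -2.11 and -1.29 at these times, and Ppox, a late enzyme, by -1.12, -1.40 and -1.13, all called. Tspo, a porphyrin-binding mitochondrial protein found in many cells, moved against the list and was higher at 0.4 week (log2 change 0.91, adjusted p = 0.021, limma). None of the 7 was called at 4 or 6 weeks with all arrays. The median log2 change of the list was -1.33, -1.46 and -0.84 at 0.4, 1 and 2 weeks.

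The globin probe sets fell in the same weeks by different amounts. Hbb-b1, an adult beta-globin, had control signals of 26155 (young), 40735 (adult) and 36293 (older rats). Its signals were 6483, 6578 and 3490.3 at 0.4 week and 3861, 1504 and 3551 at 1 week. No array at those times came near the controls. At 2 weeks the signals were 22670.2, 6671 and 4236, at 4 weeks 25344, 21015 and 16028, and at 6 weeks 33958, 23264 and 15847. The log2 changes at 0.4, 1 and 2 weeks were -2.67 ± 0.49, -3.62 ± 0.49 and -1.97 ± 0.49 (SE, n = 3, adjusted p = 0.0027, 0.0011 and 0.021, limma).

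Hbb, the other adult beta-globin with a probe set of its own, changed by -2.07, -3.43 and -1.59 on the log2 scale at 0.4, 1 and 2 weeks. The probe set shared by the alpha-globins Hba-a1 and Hba-a2 changed by -1.79, -2.80 and -1.33, the last not called (adjusted p = 0.062, limma). Hba-a3, a further alpha-globin gene, had the steepest fall of the 12 probe sets, with log2 changes of -4.59, -5.56 and -3.53 and adjusted p-values of 0.0047, 0.0022 and 0.026 (limma). Its signals at 2 weeks were 4321 (young), 305 (adult) and 297 (older rats), against controls of 3832, 11007 and 14255. A probe set that names 4 beta-globin genes together had controls of 18430, 18580 and 18176, close to each other where those of Hbb-b1 were spread. It changed by -0.78 and -1.53 at 0.4 and 1 week (adjusted p = 0.033 and 0.0018) and was not called at 2 weeks (-0.63, adjusted p = 0.088, limma). The probe sets of near-identical globin genes can read each other's transcripts, so the genes within them cannot be told apart. Whether the brightest signals came near the upper limit of the detector was not tested, so the different sizes of the falls are a description.

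Probe sets of embryonic and fetal type globins were dim. The brighter of the 2 Hbg1 probe sets had controls of 112, 247 and 320 and signals of 14.0 to 24.3 at 0.4 and 1 week, close to the floor of 20 below which signals were set to 20. It was lower at 0.4, 1 and 2 weeks (log2 change -3.18, -3.29 and -2.33, limma), and its probes may read the adult globins, which was not tested. The dimmer Hbg1 probe set was lower at the same 3 times (-1.76, -2.50 and -1.87), and Hbe2 was lower at 1 week alone (-1.11, adjusted p = 0.049). Hbe1 was not called at any of these times, and a probe set naming Hbe2 and Hbg1 was below the floor on all 18 arrays. The remaining 2 probe sets name globins together with ribosomal RNA and other genes and did not follow the globins. The signal of 1 of them was higher at 1 and 2 weeks (log2 change 3.71 and 3.46, adjusted p = 0.019 and 0.039, limma). The other, which names Hba-a2 and Hbb among 10 genes, changed by 0.47, 0.45 and 0.36 at 0.4, 1 and 2 weeks, not called, and by -1.14 at 4 weeks (adjusted p = 0.027, limma). Neither is read here as globin.

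**Figure D2:**
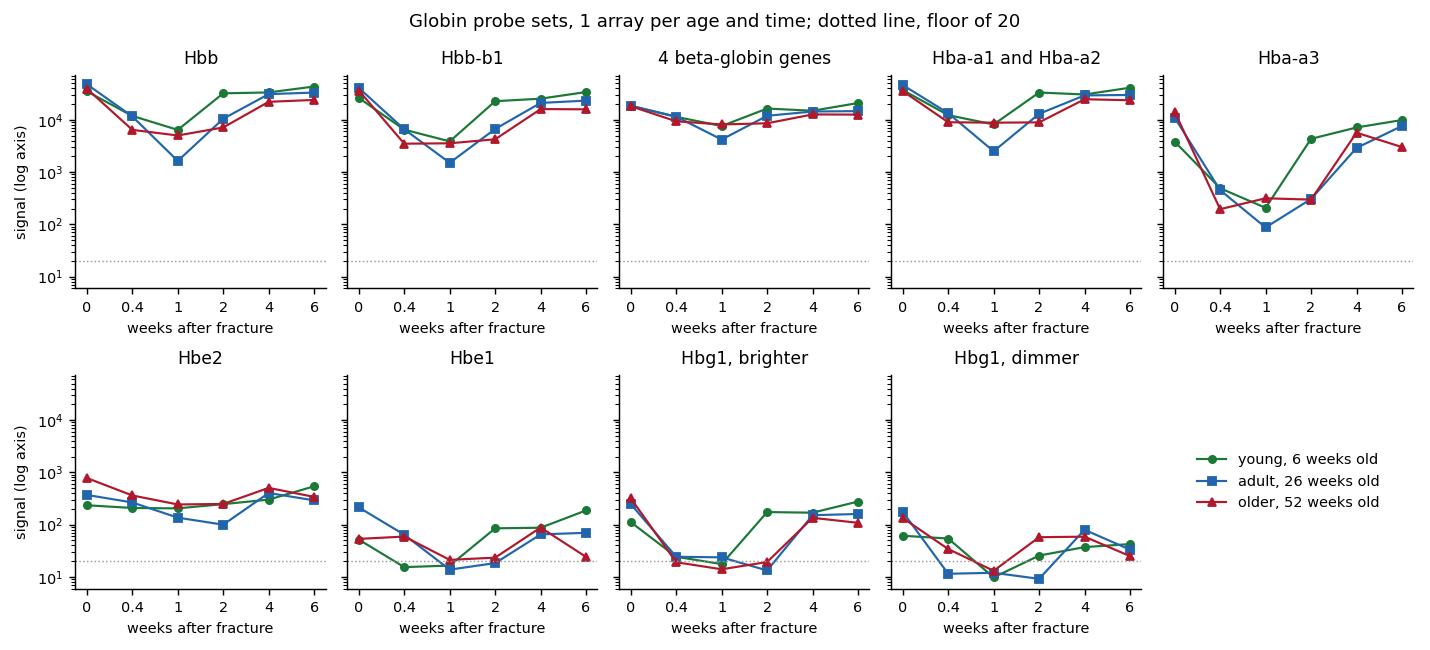
Signal (log axis, arbitrary units) against weeks after fracture for 9 of the 12 globin probe sets; every point is 1 array, colours and symbols give the age, and the dotted line is the floor of 20. The adult type globins in the top row dip at 0.4 and 1 week, deepest for Hba-a3, and the embryonic and fetal type globins in the bottom row lie much lower.

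Slc4a1 (band 3) had control signals of 2448 (young), 3517 (adult) and 6267 (older rats) on its brightest probe set. At 0.4 week the signals were 264, 168 and 98.7, and at 1 week 159.5, 109 and 120. The lowest array was that of 1 week for young and for adult rats and that of 0.4 week for older rats. At 2 weeks the signals were 3204 (young), 182 (adult) and 235 (older rats), so the young array was above its own control and the other two were near their lowest. The log2 changes at 0.4, 1 and 2 weeks were -4.53 ± 0.76, -4.89 ± 0.76 and -2.88 ± 0.76 (SE, n = 3, adjusted p = 0.0018, 0.0017 and 0.027, limma). The other 2 probe sets of Slc4a1 were dimmer and moved less. They changed by -1.76 and -1.63 at 0.4 week (adjusted p = 0.042 and 0.051), by -1.86 and -1.99 at 1 week (0.031 and 0.022) and by -1.03 and -1.63 at 2 weeks (0.22 and 0.064). Thus the size of the fall depended on the probe set, and the direction was the same in all 3.

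Among 25 red cell membrane genes listed, 11 were measured. Of these 7 were lower and 1 higher at 0.4 week, 8 lower and 2 higher at 1 week, and 4 lower and 1 higher at 2 weeks. Rhd, a blood group antigen, changed by -3.19, -3.67 and -2.25 on the log2 scale at these times. Epb41, the membrane skeleton protein 4.1, changed by -2.82, -2.63 and -2.07 and was still lower at 4 weeks (-1.39, adjusted p = 0.045, limma), the only member of the list called then. That call was lost without the young 4- and 6-week arrays (-1.29, adjusted p = 0.11). Slc2a1, the glucose transporter that red cells share with many other cells, moved against the list and was higher by 1.73, 1.99 and 0.97. Cd47, a protein found on most cells, was higher at 1 week alone (0.73). The list median was -1.28 at 0.4 week and -1.07 at 1 week.

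Gata1, the transcription factor of red cell and platelet precursors, had controls of 947 (young), 398 (adult) and 842 (older rats). Its signals were 84.4, 42.5 and 108 at 0.4 week and 34, 68.5 and 63.1 at 1 week. Every one of these 6 arrays was below every control. At 2 weeks they were 648, 78.3 and 101, and again only the young array had risen. The log2 changes at 0.4, 1 and 2 weeks were -3.23 ± 0.60, -3.69 ± 0.60 and -1.98 ± 0.60 (SE, n = 3, adjusted p = 0.0030, 0.0019 and 0.042, limma). The call at 2 weeks was lost without the young 4- and 6-week arrays (adjusted p = 0.063 with the same log2 change).

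Epor, the erythropoietin receptor, differed between ages before fracture. Its control signals were 580.0 (young), 103 (adult) and 134 (older rats). At 0.4 week they were 20.9, 19.7 and 18 and at 1 week 12.7, 18.6 and 31.7, so most were at the floor of 20 or near it and the fold changes are limited by that floor. At 2 weeks the signals were 281, 27.4 and 27.3, at 4 weeks 286, 146 and 86.0, and at 6 weeks 376, 95.4 and 127. The young array thus stood apart from the others at each of those times. The log2 change was -3.30 ± 0.66 at 0.4 week and -3.10 ± 0.66 at 1 week (SE, n = 3, adjusted p = 0.0042 and 0.0058, limma). It was not called at 2 weeks (-1.75, adjusted p = 0.078), and was called there without the young 2-week array (-2.53, adjusted p = 0.028) and without all young arrays (-2.10, adjusted p = 0.0085).

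Of 22 genes listed as regulators of red cell production, 12 were measured, and they did not move as a block. The list had 4 lower and 3 higher at 0.4 week, 4 lower and 3 higher at 1 week, and 2 lower and 1 higher at 2 weeks, with a median log2 change of -0.27, -0.30 and -0.12. Besides Gata1 and Epor, the phosphatase gene Ptpn6 was lower at 0.4 and 1 week (-0.83 and -0.79). Epo, the hormone itself, was called lower with a log2 change of -0.28 on signals at or near the floor, so little can be read from it. Hif1a, a subunit of the oxygen-sensing transcription factor, was higher at 0.4, 1, 2 and 4 weeks (1.62, 1.79, 1.21 and 1.01). The kinase genes Lyn (0.87 and 0.75) and Jak2 (0.54 and 0.54) were higher at 0.4 and 1 week, Lyn again at 4 weeks (1.27), and both are used by many cell types. The calls of Hif1a and Lyn at 4 weeks held without the young 4- and 6-week arrays (1.17 and 1.24).

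Tfrc, the transferrin receptor of dividing cells and red cell precursors, followed another course. Its controls were 412 (young), 312 (adult) and 196 (older rats), and at 0.4 week the signals were 223, 134 and 71.8. At 1 week they were already 730.0, 222 and 202, at 2 weeks 996, 352 and 288, at 4 weeks 893, 727 and 531, and at 6 weeks 552, 549 and 595. The lowest time was 0.4 week at all 3 ages, and all 3 arrays were above all controls at 4 and at 6 weeks, as for 9.43% and 6.44% of all probe sets. The log2 change was -1.18 ± 0.35 at 0.4 week (SE, n = 3, adjusted p = 0.026, limma), the only fall of Tfrc that was called. It was 0.13 at 1 week (95% interval -0.64 to 0.90), 0.67 at 2 weeks, 1.26 at 4 weeks (adjusted p = 0.061) and 0.95 at 6 weeks (adjusted p = 0.16). Tfrc was called higher without the young 4- and 6-week arrays, at 4 weeks (1.53, adjusted p = 0.027) and at 6 weeks (1.41, adjusted p = 0.049, limma). The change at 1 week was -0.22 without the young arrays. Of 15 genes of iron uptake and storage listed, 6 were measured, and Tfrc was the only one lower at 0.4 week. Aco1, which senses iron in the cytosol, was higher at 0.4, 1 and 2 weeks (1.54, 1.28 and 1.40). Slc40a1, the iron exporter, had log2 changes of -0.64, 0.67 and 0.38 at these times, and Cp, the plasma ferroxidase, of -0.24, 0.13 and 0.34, none of them called.

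Enzymes of the red cell followed the members in part. Of 16 listed, 10 were measured, and 8 were lower and 1 higher at 0.4 week, 7 lower at 1 week and 4 lower at 2 weeks. Car2, carbonic anhydrase of red cells and of bone-resorbing cells, fell by 3.65 and 2.42 on the log2 scale at 0.4 and 1 week. Cat, catalase, changed by -2.16 at 0.4 week and -1.97 at 2 weeks, and by -1.01 at 1 week, which was not called. Xpo7, a nuclear transport protein counted in this list though not an enzyme, was lower at 0.4 and 1 week (-0.80 and -1.32). Aldoa, an enzyme also abundant in muscle, was lower at 0.4, 1 and 2 weeks (-2.05, -1.89 and -1.28). Gclc, of glutathione synthesis, was higher at 0.4 week (1.84), while Gclm, the other subunit of the same enzyme, was lower (-2.80). Of 8 genes of heme and haemoglobin breakdown listed, 5 were measured. Hmox1, heme oxygenase, was higher at 0.4 week alone (1.16) and Hp, haptoglobin, which binds free haemoglobin, was lower at 0.4 and 1 week (-1.72 and -1.42). Hmox2, the second heme oxygenase, was lower at 1 week (-0.63), and the other two, Hpx and Blvra, were not called at any time.

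**Figure D3:**
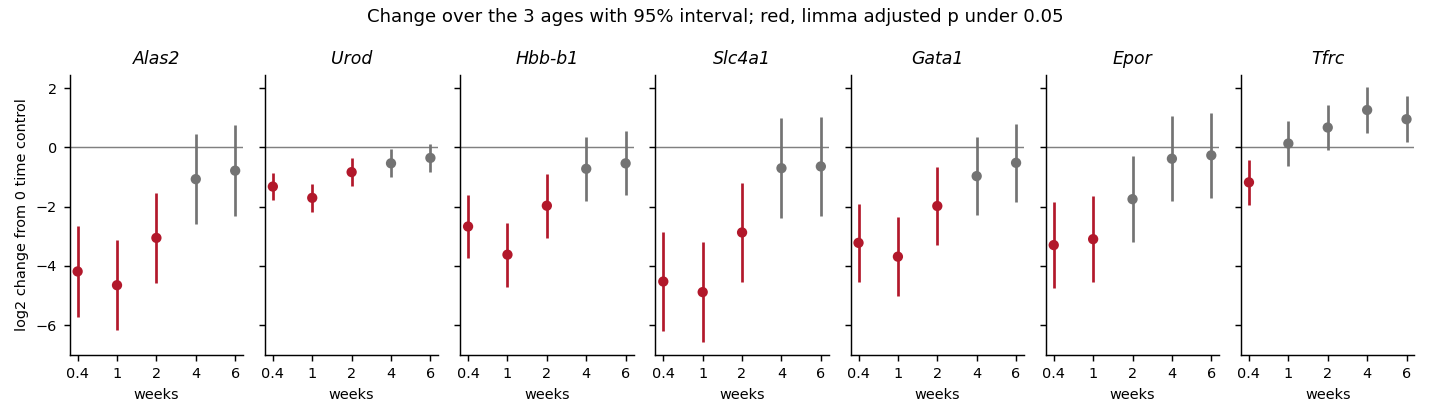
Log2 change from the 0 time control (vertical axis) at the 5 later times in weeks (horizontal axis) for each of the 7 genes, with 95% intervals from limma over 3 arrays a time; red marks an adjusted p under 0.05. The intervals of all genes but Tfrc lie below 0 at 0.4, 1 and 2 weeks, with the 2-week change of Epor not called, and intervals of 5 of the 7 genes include 0 at 4 weeks.

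The return was tested as 6 weeks against 0.4 week. All 7 genes were higher at 6 weeks (limma), where 6.01% of all probe sets were. The log2 difference was 3.88 ± 0.76 for Slc4a1, 3.40 ± 0.69 for Alas2, 3.03 ± 0.66 for Epor, 2.70 ± 0.60 for Gata1, 2.13 ± 0.49 for Hbb-b1, 2.13 ± 0.35 for Tfrc and 0.97 ± 0.21 for Urod (SE, n = 3, adjusted p from 0.0038 to 0.018). Without the young 4- and 6-week arrays, those with high Gapdh ratios, 2 of 7 were called, Slc4a1 and Tfrc, and all 7 were higher at an unadjusted p of 0.05, where 10% of all probe sets were. Without the adult arrays or without the older arrays limma called none, and all 7 were higher at an unadjusted p of 0.05 in both cases, where 8.67% and 12.2% of all probe sets were. As an alternative, the methods' t-test called 2 of 7.

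Between neighbouring times after 0.4 week limma separated none of the 7 genes, so the order of levels from 0.4 week onward is a description. Higher at the later time with an unadjusted p of 0.05 were 1 gene from 0.4 to 1 week, 5 from 1 to 2 weeks, 3 from 2 to 4 weeks and 0 from 4 to 6 weeks. Among all probe sets 6.2%, 5.84%, 7.75% and 0.801% were higher by the same threshold, and 0.503%, 0.0458%, 0.618% and 0% after adjustment. At 6 weeks the genes other than Tfrc were at 64.9% to 155% of their own control in young rats (median 109%), at 51.3% to 92.4% in adult rats (median 79.1%) and at 24.4% to 94.9% in older rats (median 44.6%). These percentages too compare 1 array with 1 other.

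The age groups parted at 2 weeks. Leaving out Tfrc, the genes were at 48.4% to 131% of their own control in young rats (median 85.4%), at 4.575% to 50.4% in adult rats (median 18.03%) and at 3.74% to 41.3% in older rats (median 11.9%). From 1 to 2 weeks the signal in young rats rose 20.1-fold for Slc4a1, 19.1-fold for Gata1, 14.7-fold for Alas2, 14.0-fold for Epor, 5.87-fold for Hbb-b1 and 3.18-fold for Urod. The same ratio in older rats was 0.861 to 1.96 for these genes and in adult rats 1.14 to 4.44, with Hbb-b1 the highest of the adult values. From 2 to 4 weeks the ratio was 0.881 to 1.12 in young rats, 1.47 to 11.5 in adult rats and 1.29 to 8.95 in older rats. Each of these ratios compares 1 array with 1 other, without a replicate of its own.

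Levels at 2 weeks were tested in young rats against adult and older rats together. Of the 7 genes 2 were higher in young rats (limma), where 0.252% of all probe sets were, and all 7 were higher at an unadjusted p of 0.05, where 5.92% of all probe sets were. Slc4a1 was higher by 3.96 ± 0.43 on the log2 scale, a 15.5-fold higher level (SE, 1 young array against 2 others, adjusted p = 0.036). Alas2 was higher by 3.35 ± 0.37, a 10.2-fold higher level (adjusted p = 0.036). Both calls were lost without the intensity trend of limma (adjusted p = 0.062 for each), and that of Slc4a1 was lost with the mean of its probe sets (2.80, adjusted p = 0.099). Epor had a log2 difference of 3.36 ± 0.43 (adjusted p = 0.068), Gata1 of 2.86 ± 0.47 (0.16), Hbb-b1 of 2.09 ± 0.61 (0.41), Tfrc of 1.65 ± 0.30 (0.20) and Urod of 1.00 ± 0.21 (0.27), none of which passed. The other 2 probe sets of Slc4a1 differed by 2.16 and 2.28 and were not called (adjusted p = 0.17 and 0.41, limma). Among the other globin probe sets the brighter Hbg1 probe set was called (log2 difference 3.12, adjusted p = 0.019), and Hba-a3 was not (3.84, adjusted p = 0.36). All of these rest on 1 young array of 2 pooled rats, so the age and that array cannot be told apart.

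The change from the own control to 2 weeks, which uses the same 2-week arrays, called the same 2 genes. It differed between young and the other rats by 4.48 ± 0.52 on the log2 scale for Alas2 and by 4.90 ± 0.61 for Slc4a1 (SE, adjusted p = 0.019 and 0.025, limma), where 0.789% of all probe sets were called higher. At 0 time Epor was higher in young rats by 2.30 ± 0.43 (adjusted p = 0.035), where 3.92% of all probe sets were, and its change to 2 weeks did not pass (1.05 ± 0.60, adjusted p = 0.40). Alas2 had a log2 difference of -1.14 at 0 time, and Slc4a1 of -0.94, neither called. No gene of the 7 was called in young against adult and older rats at 0.4, 1, 4 or 6 weeks. Among all probe sets 0.275%, 0.183%, 0.217% and 1.38% were called at these times in either direction. At an unadjusted p of 0.05, 1, 1, 1 and 3 of the 7 were higher, where 2.7%, 2.46%, 3.51% and 6.83% of all probe sets were, and 0 were lower. The values at 4 and 6 weeks rest on the young arrays of high Gapdh ratio.

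**Figure D4:**
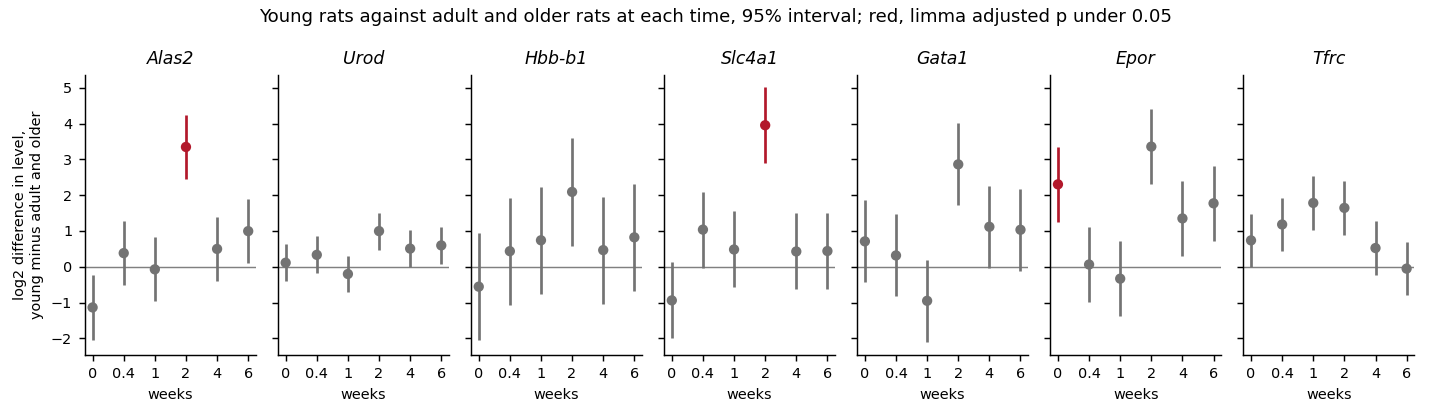
Log2 difference in level, young minus the mean of adult and older rats (vertical axis), at each time from 0 to 6 weeks (horizontal axis) for the 7 genes, with 95% intervals from limma; red marks an adjusted p under 0.05. The highest point of 6 of the 7 genes is at 2 weeks, red for Alas2 and Slc4a1, the red point of Epor is at 0 time, and Tfrc is highest at 1 week.

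Young and older rats were also compared with 2 times pooled, as the methods of the study do. None of the 7 genes was called over 1 and 2 weeks or over 4 and 6 weeks by limma, where 0% and 0.149% of all probe sets were called in either direction. At an unadjusted p of 0.05, 1 gene was higher over 1 and 2 weeks, Tfrc (log2 difference 1.82 ± 0.22, adjusted p = 0.25), where 2.96% of all probe sets were, and 0 over 4 and 6 weeks, where 5.61% were. As an alternative, the methods' t-test called none. The log2 difference over 4 and 6 weeks was 0.85 for Alas2 (95% interval -1.56 to 3.26), 0.50 for Slc4a1 (-1.82 to 2.82) and 0.88 for Hbb-b1 (-0.58 to 2.34), intervals that include large differences either way.

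The genes moved together over the 18 arrays, apart from Tfrc. Pearson's r of the log2 signals was 0.86 to 0.98 for the 15 pairs without Tfrc, highest for Alas2 with Slc4a1, and 0.43 to 0.61 for the 6 pairs with Tfrc. The arrays share the same fracture course, and these values are a description. Of 2538 other genes with 1 symbol and a mean signal of at least 200, the 10 with the profile most like the mean of the members had r of 0.91 to 0.97. They were Nup210, Alox15, Rsad2, Ctse, Gch1, Asb1, Bnip3l, Tspan8, Ncoa4 and Fn3k, in this order. All 10 were lower at 0.4, 1 and 2 weeks and higher at 6 than at 0.4 week, a pattern that their choice already holds. Alox15, a lipoxygenase, had signals at 2 weeks of 1443 (young), 10.9 (adult) and 12.1 (older rats), against controls of 3804, 2016 and 2227. Rsad2, an interferon-induced protein, had 3548, 117 and 192 against 7886, 7983 and 11987. In both the young array at 2 weeks stood far above the other two. The choice of the 10 holds this too, as the mean profile of the members was 0.996 on that array, -0.7 in adult and -0.707 in older rats. The gap was smaller in others of the 10, such as Tspan8, with 442, 209 and 296 at 2 weeks.

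Markers of other cells moved in the same weeks. Of 10 granulocyte genes measured of 22 listed, 7 were lower at 0.4 week, 7 at 1 week and 6 at 2 weeks, among them the defensin genes RatNP-3b and Defa5, S100a9 and the eosinophil protein gene Prg2. Mmp9, a protease also made by bone-resorbing cells, moved against that list and was higher at 2 weeks (log2 change 3.38, adjusted p = 0.044, limma). The summed signal of the 10 was 34601 to 54968 in the controls and 1855 to 18640 at 0.4 week. At 2 weeks it was 13746 (young), 13930 (adult) and 10229 (older rats), Mmp9 included. The log2 difference of young against adult and older rats at 2 weeks had a median of 1.01 over the granulocyte genes and 2.86 over the members, and no granulocyte gene was called. This median was 0.05 over all probe sets.

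Of 5 B lymphocyte genes measured of 17 listed, 3 were lower at 0.4 and at 1 week, Cd72, Cd79b and Igll1. The others were not called, Ebf1 with log2 changes of -0.11, 0.98 and 1.04 at 0.4, 1 and 2 weeks and Rag1 with 0.35, 0.35 and 0.36. At 4 weeks Cd79b was called higher (1.89, adjusted p = 0.039, limma), the only call of the list at 4 or 6 weeks. The list median was then 0.77 and 0.25. The summed signal of all 5 at 2 weeks was 1292 (young), 604 (adult) and 695 (older rats). Megakaryocyte and platelet genes had 4 of 9 lower at 0.4 week, Itga2b, Gp5, Pf4 and Vwf, and P2ry12 was higher at 1 week (0.73). The summed signal of 15 cell cycle genes at 2 weeks was 17454 (young), 9751 (adult) and 10305 (older rats), and none of them was called between the ages at that time, while 4 were higher in the young controls, Cdk4, Mcm5, Stmn1 and H2az1. Skeletal muscle genes, 19 in number, had 17 lower at 0.4 week and then 16 at 1 week, with Myh2, Casq1, Tpm1 and Pvalb having the smallest p. Myog, a transcription factor of forming muscle, was higher at both times (2.30 and 2.31). Their summed signal at 2 weeks was 136873 (young), 190210.0 (adult) and 176329 (older rats), lowest in the young.

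Some markers of cartilage, bone and macrophages were higher in the weeks in which the red cell genes were low, but not only then. The median log2 change of the bone list was 0.97, 0.64, 1.04, 1.04 and 1.14 over the 5 later times. That of the cartilage list was still 2.29 at 4 weeks and 1.49 at 6 weeks. The median of the macrophage list was 0.90, 0.60, 0.39, 0.48 and 0.60 over the 5 later times. Cd74 of that list was called higher at all 5, most at 4 and 6 weeks (2.21 and 2.19), when no other gene of the list was called. Itgam went the other way, with changes of -0.71, -0.45, -0.44, -0.45 and -0.65, none of them called. Of 7 cartilage genes measured of 11 listed, 3 were higher at 0.4 week and 6 at both 1 and 2 weeks, with a list median of 1.59, 3.93 and 4.19 on the log2 scale. Col10a1, a collagen of mature cartilage, changed by 4.78 at 1 week and 6.96 at 2 weeks, and Comp, a cartilage matrix protein, by 3.92 and 4.19. The summed cartilage signal was 396 to 2700 in the controls and 24045 to 27892 at 2 weeks, when it was 25454 in young rats, between the adult and older values. Of 9 bone genes measured of 13 listed, 4 were higher at 0.4 week, 3 at 1 week and 5 at 2 weeks, among them Ibsp (3.11, 3.23 and 2.99), Spp1 and Sparc, and Bglap, osteocalcin, was lower at 0.4 and 1 week (-1.21 and -1.01). Of 6 macrophage genes measured of 14 listed, 3 were higher at 0.4 week, Cd14, Cd74 and Aif1, and 2 at each of 1 and 2 weeks. No cartilage, bone or macrophage gene was called in level between young and the other rats at 2 weeks. In the change from the own control to 2 weeks 1 was, Col10a1, with a log2 difference of -2.97 in young rats (adjusted p = 0.045, limma). Its level was higher in the young control (log2 difference 2.71, adjusted p = 0.012, limma) and differed by -0.25 at 2 weeks. In the young control 3 of 7 cartilage genes and 5 of 9 bone genes were called higher, where 3.92% of all probe sets were. The part of the makeup of the tissue in the fall and return of the red cell genes was not tested.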

How the data were processed

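The authors pooled RNA of 2 rats for each of 18 Affymetrix rat arrays and computed signals with Microarray Suite 5.0, scaled to an average of 500. The deposited intensity values are on a linear scale. The trimmed mean of every array was checked against that scaling and was close to 500 (499.98 to 499.99 with 2% left out at each end). Of 8799 probe sets, 59 controls were left out. A floor of 20 was put on the signals before the log2 was taken, and the arrays were not normalized again. Genes were named from the platform annotation, updated through a current rat gene table that held 5124 of 5159 gene identifiers: 7006 probe sets had 1 symbol, 308 several and 1426 none. Where a gene had several probe sets, the brightest stood for it.

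limma 3.58.1 in R 4.3.3 was fitted to all 18 arrays with an intensity trend and Benjamini-Hochberg adjustment over 8740 probe sets at 0.05. Changes with time used age and week as terms (10 residual degrees of freedom). Young rats were compared with adult and older rats at each week (5 degrees of freedom) and with older rats over pooled weeks (4). The methods name a t-test without a threshold, so it was read at the p of 0.005 that they give for the software's change calls between arrays, and after Benjamini-Hochberg adjustment. The fits were tested on simulated data. The number of arrays limits the precision.

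The members and lists were chosen with earlier results of these data known. Named were all members and globin probe sets, up to 4 members of each other list with the smallest F test p, those that moved against their list, and the 10 genes most like the members. Other genes of short counts, Hmox2, Hpx, Blvra, Epo and Ptpn6 among them, the neighbouring times and several settings (no young 2-week array, change from the own control for young against older rats, other treatments for the change to 2 weeks, and no young 4- and 6-week arrays for single list genes) were chosen after values were seen. Promoters came from RefSeq (GRCr8). Figures were drawn with matplotlib 3.10.9.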

Additional observations from a re-analysis of the deposited data

Results flagged for a closer look

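The change from 0 time to 2 weeks differed between young rats and the adult and older rats in 2 of the 7 genes, by the test of the difference itself. For Alas2 it was 4.48 on the log2 scale (limma, adjusted p = 0.019) and for Slc4a1 4.90 (adjusted p = 0.025). The young signal at 2 weeks was 95.4% of its control for Alas2 and 131% for Slc4a1, against 4.575% and 5.17% in adult rats and 3.97% and 3.74% in older rats. Both calls held under the 7 other treatments and tests of the signals, with adjusted p from 0.0014 to 0.027 for Alas2 and from 0.0018 to 0.04993 for Slc4a1 (limma), highest for Slc4a1 with the mean of its probe sets. The young value is that of 1 array of 2 pooled rats, whose Gapdh 3' to 5' ratio of 1.77 was within the range of the 16 arrays of low ratio, and 1 array cannot be told apart from its age.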

How the results depend on the processing

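The main results were computed again with other treatments of the signals (a floor of 1, quantile normalization, an offset of 50, arrays scaled to the median), with other tests (no age term, no intensity trend, probe sets of mean signal 200 or more, the mean of a gene's probe sets), with each age or the young 4- and 6-week arrays left out, and with the methods' t-test. The young 2-week array was left out, and the change from the own control was used for young against older rats, as settings chosen after the data were seen. No paired analysis was possible because each group has 1 array and all 18 titles carry the same series number. The age term already ties the arrays of an age together, and without it 6, 6 and 4 of the 7 genes were lower at 0.4, 1 and 2 weeks. With 1 age left out, the counts of the 7 genes ranged from 0 to 7 lower at 0.4 week, 2 to 6 at 1 week, 0 to 6 at 2 weeks, 0 to 1 at 4 weeks and 0 to 1 at 6 weeks. They ranged from 0 to 1 higher at 4 weeks, 0 to 1 at 6 weeks and 0 to 6 in the return. The log2 change of Alas2 at 0.4 week was -3.93 without the adult and -3.94 without the older rats, in fits that held fewer arrays. One gene, Tfrc, was called higher at 4 weeks in place of 0 with an offset of 50, a floor of 1, median scaling, probe sets of mean signal 200 or more, or no young 4- and 6-week arrays, and in this last setting 1 was higher at 6 weeks and 2 of 7 in the return. Young against adult and older rats at 2 weeks gave 0 of 7 with no intensity trend and 1 with the mean of all probe sets in place of 2, and young against older rats at 1 and 2 weeks gave 1 in place of 0 with a mean signal of at least 200. As an alternative, the methods' t-test gave 3 lower at 0.4 week and 3 at 1 week after Benjamini-Hochberg adjustment, 0 at 2 weeks with and without it, and 2 in the return with and without it. The cause of these differences was not tested. Of the single-gene values, 1 changed sign, that of Tfrc at 1 week (-0.22 without the young arrays, and 0.44 without the adult ones), 61 lost their call, 13 gained one and 564 did neither. Signals near the floor limit Epor and the dim globins, whose changes are bounded by the floor of 20.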
